A study of Mus musculus with 18 samples.

Results

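Most of the genes described here encode voltage-gated sodium and calcium channels and potassium channels of the mouse, with their auxiliary subunits. They were taken by gene symbol alone: every symbol that begins with Kcn (leaving out Kcnq1ot1, a long non-coding RNA), with Cacn, or with Scn followed by a digit. This gave 75 of the 15552 genes named in the deposited tables. The dorsal root table listed 69 of them among 14779 genes, the table of sciatic nerve gave 43 among 13555, and 37 stood in both. The 6 genes listed for sciatic nerve only were Cacng1, Cacng6, Kcnj14, Kcnq1, Kcnu1 and Scn8a. Antisense RNAs, which encode no channel, made up 3 of the 75 (Kcnab3os, Kcnd3os and Kcnmb4os2) and are counted among the channel genes below. Of the channel genes commonly studied in sensory axons, Scn9a, Scn11a, Cacna1b, Cacna1h, Cacna2d1, Cacna2d2, Cacnb4, Kcnab2, Kcnt1 and Kcnma1 were not analysed here.

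Voltage-gated sodium channels carry the rising phase of the axonal action potential, and potassium channels repolarise the membrane and hold its resting potential. Calcium channels couple depolarisation to calcium entry at terminals and growth cones. In myelinated axons the sodium channels cluster at the nodes of Ranvier, while Shaker-type potassium channels lie under the myelin beside them, far from the cell body where most of their protein is made. Kif5A is a neuronal heavy chain of kinesin-1, the microtubule motor of outward axonal transport, and RNA that comes down with Kif5A is a way to ask which transcripts travel with it.

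All libraries came from C57B6 mice, with no genetic change or treatment named. Axoplasm-enriched lysate was prepared from dorsal roots, which hold the central axon branches of sensory neurons, or from sciatic nerves, which hold mixed peripheral axons, by grinding the tissue and spinning it down. For each tissue there were 3 groups of 3 libraries: RNA bound to a rabbit antibody against Kif5A, RNA bound to rabbit IgG as the control for non-specific binding, and input RNA from the lysate without precipitation, 18 libraries in 6 groups. Each biological repeat pooled 5 animals, so the spread between libraries is a spread between pools, and the animals' age and sex were not given in the sources used here. Equal replicate numbers in the 3 groups were not stated to share animals.

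What unites the potassium channels among these genes is the selectivity filter, the short stretch of the pore where potassium ions line up. A filter coding stretch was found in a listed transcript of 42 of the 44 pore-forming potassium channel genes. The 6 stretches below belong to genes on which the results turn: Kcna1 and Kcnk1 had the highest levels per length of all the channel genes, Kcna2 is the Shaker partner of Kcna1, Kcnk3 differed between the inputs of the nerves, and Kcnc4 (dorsal root) and Kcnh8 (sciatic nerve) were near absent from IgG precipitates. Each is 63 bases of coding sequence (GENCODE M21, GRCm38), 5′ to 3′ on the coding strand, with the 15 bases of the filter codons in capitals and 24 bases on either side. For the tandem-pore genes Kcnk1 and Kcnk3 the first of their filters is shown.
Kcna1: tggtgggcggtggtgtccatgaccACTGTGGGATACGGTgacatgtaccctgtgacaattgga
Kcna2: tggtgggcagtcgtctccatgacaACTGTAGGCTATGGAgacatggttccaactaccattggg
Kcnc4: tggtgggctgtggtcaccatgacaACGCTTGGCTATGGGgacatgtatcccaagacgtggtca
Kcnh8: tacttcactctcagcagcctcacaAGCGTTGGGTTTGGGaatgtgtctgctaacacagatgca
Kcnk1: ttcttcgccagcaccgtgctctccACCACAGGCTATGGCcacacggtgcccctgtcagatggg
Kcnk3: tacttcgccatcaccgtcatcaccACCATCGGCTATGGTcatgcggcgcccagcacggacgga
The Kcna1 and Kcna2 stretches were the same at 46 of 63 bases (73.0%), Kcna1 and Kcnc4 at 43 (68.3%), and Kcnk1 and Kcnk3 at 45 (71.4%). Over whole transcripts, 70 of the 75 genes shared under 7% of their 50-base words with any other annotated gene, and 37 shared none. The 4 above 20% were Kcnj13 (43.3%, with Gigyf2), Kcnmb4 (39.6%, with its opposite-strand RNAs Kcnmb4os2 and Kcnmb4os1), Kcnj14 (31.2%, with Gm5522) and Kcna6 (29.4%, with Gm26673), and their counts are uncertain to that extent.

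Libraries held 11584418 to 22580824 counts in named genes. Markers of myelinating Schwann cells summed to 21310 to 30130 CPM (counts scaled to a common library size with the trimmed mean of M-values, TMM) in dorsal root input, against 1031 to 1084 CPM for neuronal markers. In sciatic nerve input the same sums were 16870 to 26400 and 173.5 to 225 CPM. Markers of astrocytes and oligodendrocytes, cells of the central nervous system, summed to 1274 to 1752 CPM in dorsal root input and 13.0 to 16.2 CPM in sciatic nerve input. These libraries do not separate RNA of axons from RNA of the cells around them.

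Most channel genes were rare in both nerves, and 3 made up most of the channel counts. Kcna1 (a Shaker potassium channel of the juxtaparanode, chr6:126640397-126646384), Scn7a (an atypical sodium channel that responds to sodium concentration, chr2:66673425-66784914) and Kcnk1 (a tandem-pore leak channel, chr8:125995170-126030685) together held 68.7% to 84.0% of all channel counts in every library. The median channel gene had 3.53 CPM in dorsal root input and 4.93 CPM in sciatic nerve input, where the median over all genes was 9.4 and 11 CPM. Of the 69 genes in dorsal root input, 14 were under 1 CPM, 16 were at 10 CPM or more and 4 at 100 CPM or more. All channel genes together held 0.253% to 0.300% of the counts in dorsal root input and 0.171% to 0.250% in sciatic nerve input.

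CPM also depend on transcript length, which matters where they are set beside those of other genes. Per kilobase of transcript, the order of the first genes was alike in the inputs of both nerves. In dorsal root input Kcna1 stood at 334 ± 55.4 CPM per kb (SD, n = 3 libraries), above 98% of all genes. Kcnk1 followed at 231 ± 2.50 and Scn7a at 110.5 ± 9.14, and these 3 did not overlap in their mean ± SD. Kcnmb4, the brain-type accessory subunit of calcium-activated potassium channels, was at 51.5 ± 13.4, Kcnj13 at 32.4 ± 3.34, Kcnj10 at 19.6 ± 3.80 and Kcnk5 at 12.7 ± 3.22. The last pair, Kcnj10 and Kcnk5, overlapped in their mean ± SD. In sciatic nerve input Kcna1 was at 161.5 ± 16.7, Kcnk1 at 136 ± 10.5 and Scn7a at 123.5 ± 38.5 CPM per kb, and the SD of Scn7a spanned Kcnk1. Below them were Kcnmb4 at 66.5 ± 54.7, Kcnj13 at 19.5 ± 2.46, Kcnj2 at 11.96 ± 6.02 and Kcnk5 at 11.4 ± 2.95, of which only Kcnj13 and Kcnk5 were separated by more than their SD from one another. Across the 37 genes of both tables the input CPM of the nerves had a Spearman correlation of 0.884, a description over genes that share the same 6 libraries.

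**Figure D1:**
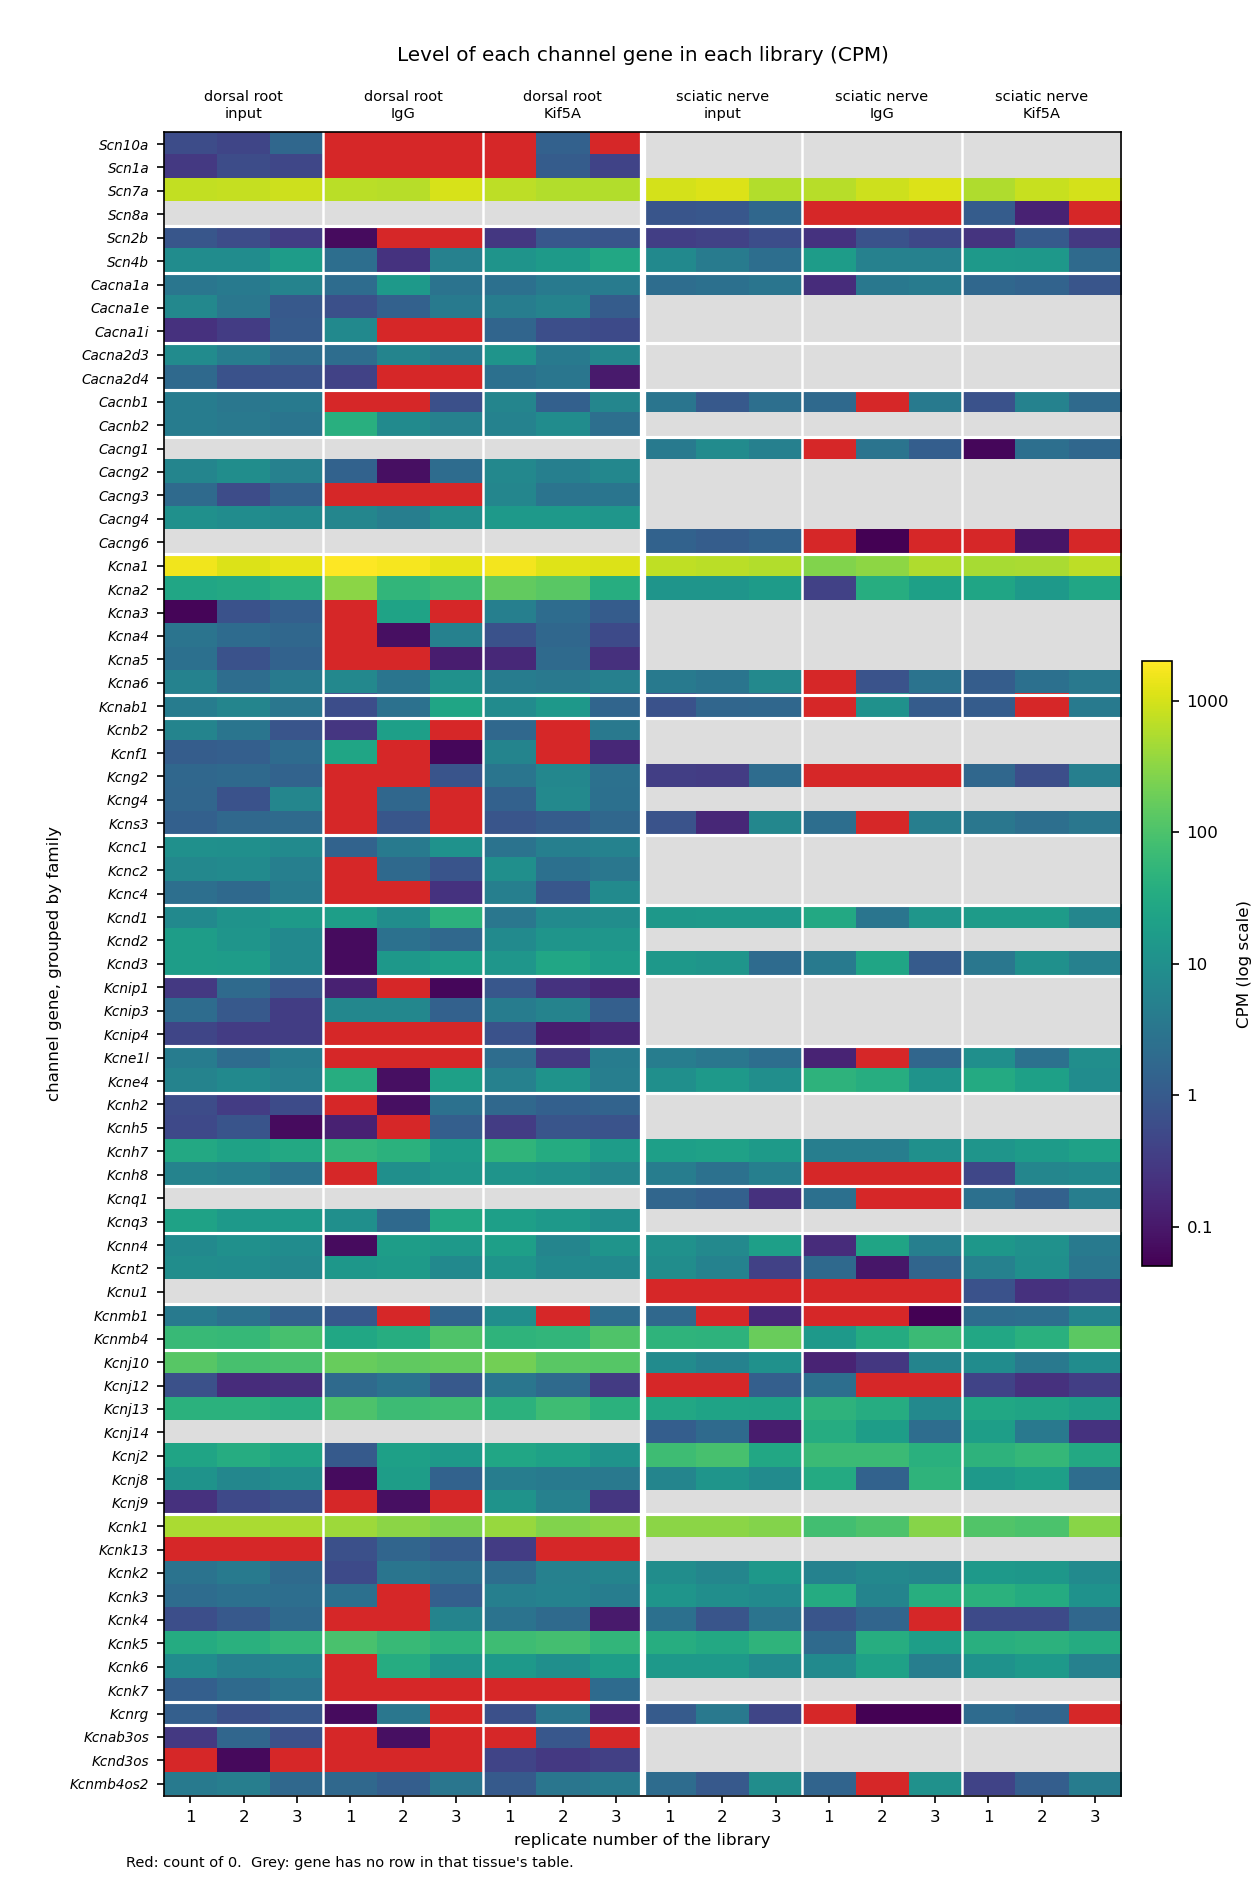
Each row is 1 of 71 channel genes, grouped by family, each column 1 library, and the colour gives CPM on a log scale. Red marks a count of 0, which is most frequent in the 3 IgG columns of each tissue, and grey marks a gene that has no row in that tissue's table.

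Of the sodium channel pores, Scn1a, Scn10a and Scn8a were close to the limit of detection. Scn1a had 5, 9 and 7 counts in the 3 dorsal root inputs, and Scn10a, the tetrodotoxin-resistant channel of nociceptors, had 10, 7 and 25. Scn8a, the channel of the mature node, had 14, 11 and 31 counts in sciatic nerve input, from a listed transcript of only 1072 bases. Of their beta subunits, single-span proteins that anchor and tune the pores, Scn4b had 11.5 ± 4.95 CPM in dorsal root input and 4.67 ± 2.68 in sciatic nerve input. Scn2b, a beta subunit held to its pore by a disulphide bond, had 0.600 ± 0.260 and 0.462 ± 0.142 CPM. Among calcium channel pores, Cacna1a (P/Q-type) reached 4.28 ± 1.27 CPM in dorsal root input and Cacna1e (R-type) 3.82 ± 3.09.

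Against IgG, no channel gene of dorsal root reached an adjusted p under 0.05 with Kif5A. A set of channel subunits, mostly of low abundance, had higher levels in every Kif5A library than in every IgG library. They included Cacng3, Kcne1l, Kcnc4, Scn2b, Scn4b, Kcnd2, Cacnb1, Kcng2, Kcna5 and Cacng2. Of these, Kcnd2 and Scn4b had 12.9 and 11.5 CPM in input, above the median of 9.4 CPM over all genes. Per kilobase of transcript, however, they stood above only 40.2% and 38.7% of all genes. The abundant channels Kcna1, Scn7a, Kcnk1 and Kcnj10 had fitted ratios between 0.788 and 0.991, with overlapping libraries. The edgeR quasi-likelihood test with Benjamini-Hochberg adjustment over 14150 genes called 0 of the 63 channel genes tested, as it called 0 of all genes (0.0%). At an unadjusted p under 0.05, 12 channel genes were higher with Kif5A and 1 lower, where 7.51% of all genes were higher and 4.25% lower. These counts depended on the input libraries that share the estimate of spread. With only the Kif5A and IgG libraries in the edgeR fit, 5 of 56 channel genes had an unadjusted p under 0.05, all 5 higher. Of all 13124 genes, 771 did. In 15 channel genes all Kif5A libraries were above all IgG libraries and in 2 all were below, where 9.03% and 5.1% of all genes were. The 6 channel genes that did not pass the filter on low counts were Kcnip4, Kcnj9, Scn10a, Scn1a, Kcnab3os and Kcnd3os. A gene can pass that filter through the group where it is high, so these counts describe the tested genes and do not cover all 69.

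Other tools gave other counts. DESeq2 called 7 of the 63 at an adjusted p under 0.05 (Cacng3, Kcne1l, Kcnc4, Scn4b, Cacnb1, Kcnd2 and Kcng2, all higher with Kif5A), where it called 5.57% of all genes, and limma-voom called 1 (Cacng3), where it called 1.72%. On counts simulated for this comparison, 50 of 100 genes changed 16-fold and 21 of 100 changed 4-fold were recovered by edgeR among 13822 genes. The changed genes were raised or lowered, and those lost to the filter counted as not recovered. The simulation gave all groups the same spread per gene, whereas the real IgG libraries varied most. It therefore does not give the recovery in the real data.

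Cacng3 belongs to the gamma subunit family of calcium channels and is best known as a partner of AMPA receptors (chr7:122670492-122769393). It had 1.964, 0.587 and 1.32 CPM in the dorsal root inputs of replicates 1 to 3 and 6.44, 2.91 and 3.11 CPM with Kif5A, and no count in any IgG library. The Kif5A libraries were thus the highest group and did not overlap with either of the others. With 224 counts in the 3 Kif5A libraries against a floor of 3 counts over the IgG group, Cacng3 was at least 66.3-fold higher with Kif5A (adjusted p = 0.0716, edgeR), the lowest adjusted p that any gene reached in this comparison. It passed the threshold with DESeq2 (adjusted p = 1.1e-05) and limma-voom (0.0114), and its adjusted p ran from 1.1e-05 to 0.272 over 13 alternatives. Its relative Cacng2, the classical partner of AMPA receptors, had 6.18 ± 1.08 CPM with Kif5A, 1.19 ± 1.02 with IgG and 6.85 ± 1.99 in input (log2 ratio of Kif5A to IgG 2.36, SE 0.96, adjusted p = 0.352). Cacng4, of the same subfamily, had 14.5, 14.6 and 13.2 CPM with Kif5A and 6.38, 4.59 and 9.33 with IgG, without overlap (log2 ratio 1.06, SE 0.52, adjusted p = 0.477). All 3 gamma subunits tested were on the same side.

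Cacnb1, a cytoplasmic beta subunit that brings calcium channel pores to the membrane, had 0, 0 and 11 counts with IgG and 112, 22 and 122 with Kif5A. Its log2 ratio was 4.34 (SE 1.48, adjusted p = 0.247), and its input level of 3.82 ± 0.504 CPM lay within the Kif5A range of 1.28 to 6.54 CPM. Cacnb2, another beta subunit, had more RNA with IgG on average, with 39.2, 7.93 and 5.35 CPM with IgG against 5.44, 8.67 and 2.41 with Kif5A (log2 ratio -1.67, SE 0.84, adjusted p = 0.499). The first IgG library alone set that mean, and the groups overlapped. Cacna2d4, an extracellular alpha2delta subunit, had 6, 0 and 0 counts with IgG and 46, 55 and 2 with Kif5A. Of the pores, Cacna1a had 15.1 CPM in the second IgG library and 2.15 to 4.18 CPM in the other 5 precipitates. Its log2 ratio of -0.91 turned to 0.52 without that library. There a retained-intron transcript of 1153 bases held 169 counts and the protein-coding transcript 25. The protein-coding transcript had 10, 25 and 47 counts with IgG and 27, 46 and 33 with Kif5A.

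Scn2b had 5, 15 and 15 counts with Kif5A and 1, 0 and 0 with IgG, a ratio of 31.1 with a 95% counting interval of 5.22 to 1260. Its input held 15, 9 and 5 counts, so input and Kif5A libraries overlapped while IgG lay below both (log2 ratio of Kif5A to IgG 4.45, SE 1.27, adjusted p = 0.152). Scn4b, which lies next to Scn2b on chromosome 9 (chr9:45138395-45154152 and chr9:45117782-45130070), had 11.8, 15.8 and 28.2 CPM with Kif5A and 2.28, 0.233 and 5.17 with IgG. No Kif5A library of Scn4b came near the IgG range (log2 ratio 2.85, SE 0.92, adjusted p = 0.215). Scn7a, the one sodium channel pore that was tested, had 683, 582 and 591 CPM with Kif5A and 672.5, 637 and 1032 with IgG, groups that overlapped. Scn1a had 0, 19 and 8 counts with Kif5A and Scn10a 0, 23 and 0, both with no count in IgG. Against the floor of 3 counts over the group these were at least 7.99-fold and at least 6.81-fold higher, without a test, and Scn10a rested on 1 library.

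Among the voltage-gated potassium channels, Kcnc4 carried the clearest difference in dorsal root. It encodes a fast A-type channel of the Shaw family (chr3:107438303-107459552), and had 2.37, 1.89 and 4.03 CPM in input, 0, 0 and 0.238 CPM with IgG and 4.83, 0.873 and 7.93 CPM with Kif5A. The IgG libraries lay below the other 6. Its log2 ratio was 5.64 (SE 1.49, adjusted p = 0.127 with edgeR and 0.00115 with DESeq2). Kcnc2, of the same family, had 9.65, 2.50 and 3.32 CPM with Kif5A and 0, 1.87 and 0.772 with IgG (log2 ratio 2.55, SE 1.23, adjusted p = 0.469). Kcnc1 had overlapping groups (4.36 ± 1.35 and 5.44 ± 5.04 CPM).

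The 3 A-type Shal genes differed in direction. Kcnd2 had 7.93, 12.5 and 13.1 CPM with Kif5A and 0.0671, 2.64 and 1.78 with IgG (log2 ratio 2.90, SE 0.98, adjusted p = 0.241). Kcnd1 had 3.27, 7.86 and 9.05 CPM with Kif5A, below the 19.2, 9.10 and 44.5 CPM with IgG, and was the channel gene with the lowest p in that direction (log2 ratio -1.85, SE 0.68, adjusted p = 0.288). Kcnd3 overlapped, with 13.0, 26.1 and 17.5 CPM with Kif5A and 0.0671, 14.5 and 19.7 with IgG. Kcnip1, a calcium-binding protein that accompanies Shal channels, had 16, 4 and 3 counts with Kif5A and 2, 0 and 1 with IgG. Kcnip4 had 13, 2 and 3 counts with Kif5A and none with IgG, at least 5.33-fold higher, and did not pass the filter.

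In the Shaker family, which includes the most abundant channel gene, 5 of 6 fitted ratios were below 1. Kcna1 had 1676, 1198 and 1129 CPM with Kif5A, 2006, 1730 and 1343 with IgG and 1565, 1118 and 1356 in input, 3 ranges that overlapped (log2 ratio of Kif5A to IgG -0.34, SE 0.25, adjusted p = 0.718). Kcna2, its partner at the juxtaparanode, had 154, 134 and 36.3 CPM with Kif5A and 313, 52.4 and 68.2 with IgG, and all 6 except 1 library exceeded the highest input of 39.2 CPM. That library, the third with Kif5A, was within the input range. Its Kif5A to IgG log2 ratio of -0.42 turned to 0.84 without the first IgG library. Kcna5, a Shaker channel of muscle and glia, had 0, 0 and 2 counts with IgG and 3, 34 and 4 with Kif5A, a ratio of 18.2 with a counting interval of 4.73 to 155. The second library held most of those counts. Kcna3, Kcna4 and Kcna6 had log2 ratios of -1.53, -0.81 and -0.69, and in Kcna3 a single IgG library held 302 counts while the other two held none.

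**Figure D2:**
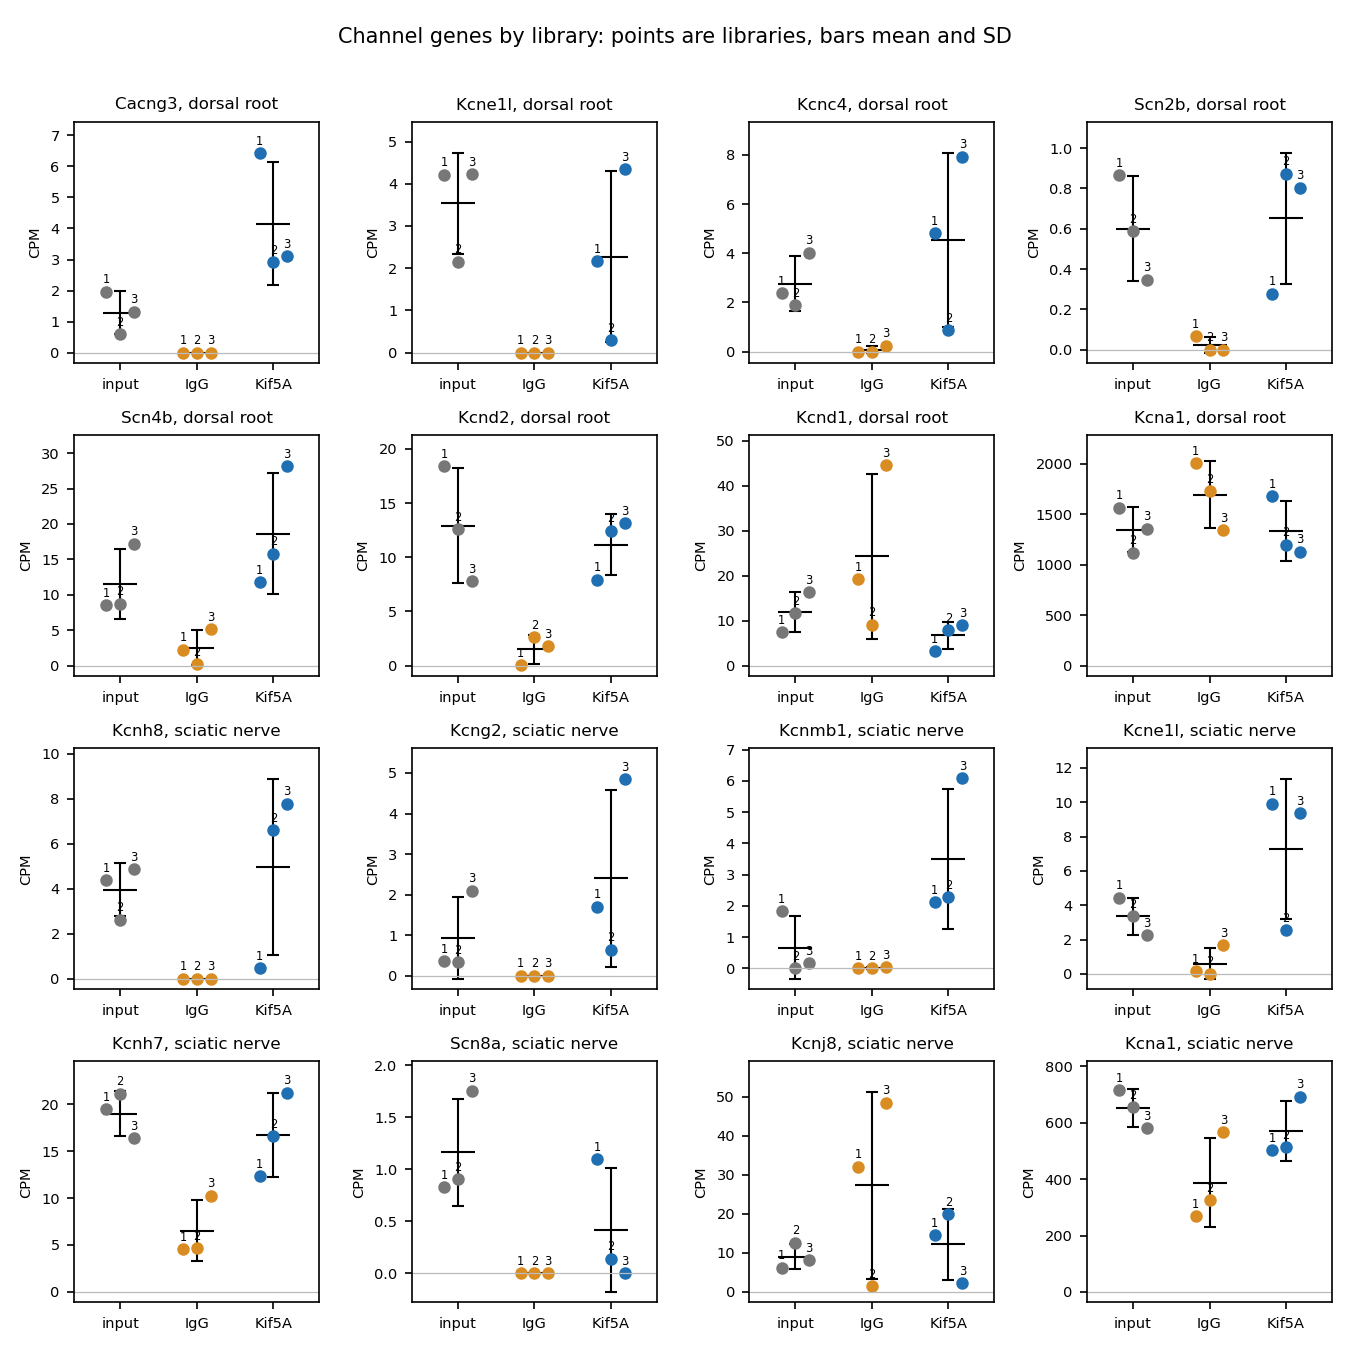
Points are single libraries in CPM, numbered by replicate, and bars are the mean and SD of 3, for 8 channel genes in dorsal root (upper panels) and 8 in sciatic nerve (lower panels). The IgG points lie at or near 0 in Cacng3, Kcne1l, Kcnc4 and Scn2b of dorsal root and in Kcnh8, Kcng2 and Kcnmb1 of sciatic nerve. In Kcne1l of sciatic nerve the third IgG library, with 37 counts, lies higher. In Kcna1 all 3 groups overlap in dorsal root.

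Kcne1l, a single-span accessory subunit of the Kcne family on chromosome X (chrX:142304752-142306294), had 4.22, 2.15 and 4.23 CPM in dorsal root input and 2.16, 0.291 and 4.34 CPM with Kif5A. No IgG library held a count, so it was at least 37.0-fold higher with Kif5A (adjusted p = 0.0968 with edgeR and 0.000686 with DESeq2). The Kif5A libraries spread widely, and the second of them held only 5 counts. Kcne4, of the same family, had 5.16, 11.8 and 4.61 CPM with Kif5A and 37.6, 0.0778 and 20.4 with IgG. Kcng2, a silent subunit that forms channels only with Kcnb partners, had 56, 118 and 49 counts with Kif5A and 0, 0 and 13 with IgG (log2 ratio 3.95, SE 1.47, adjusted p = 0.293). Kcnk7, a tandem-pore protein, had 0, 0 and 38 counts with Kif5A and none with IgG. Its summed Kif5A counts were at least 11.2-fold higher, from 1 library, while its inputs held 21, 30 and 43.

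The 5 inward rectifiers tested and most tandem-pore genes had overlapping groups. Kcnj10, the rectifier of glia, had 208, 135 and 124 CPM with Kif5A and 172, 150 and 165 with IgG. Kcnj13 had 45.8, 73.4 and 43.7 CPM with Kif5A and 102, 70.0 and 76.0 with IgG (log2 ratio -0.61, SE 0.31, adjusted p = 0.505). Kcnj9, a G-protein-gated rectifier and the neighbour of Kcnj10 on chromosome 1, had 209, 91 and 5 counts with Kif5A, 0, 1 and 0 with IgG and 4, 8 and 10 in input. This made 305 counts against 1, a ratio of 271 with a counting interval of 48.2 to 10700, in a gene that did not pass the filter. Kcnk1 had 394, 263 and 310 CPM with Kif5A and 418, 311 and 247 with IgG. Kcnk2, a mechanosensitive leak channel, had 2.22, 5.35 and 5.84 CPM against 0.537, 3.11 and 2.49 (log2 ratio 1.12, SE 0.88, adjusted p = 0.748). Kcnk13 had no count in any input, 10, 20 and 18 counts with IgG and 6, 0 and 0 with Kif5A.

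Channels of the ether-a-go-go family had overlapping libraries. Kcnq3, a subunit of the M-channel, also overlapped, with a log2 ratio of 0.14. Kcnh2 had 32, 22 and 27 counts with Kif5A and 0, 1 and 44 with IgG, and Kcnh7 had 50.9, 34.3 and 17.2 CPM against 53.0, 43.6 and 16.9.

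**Figure D3:**
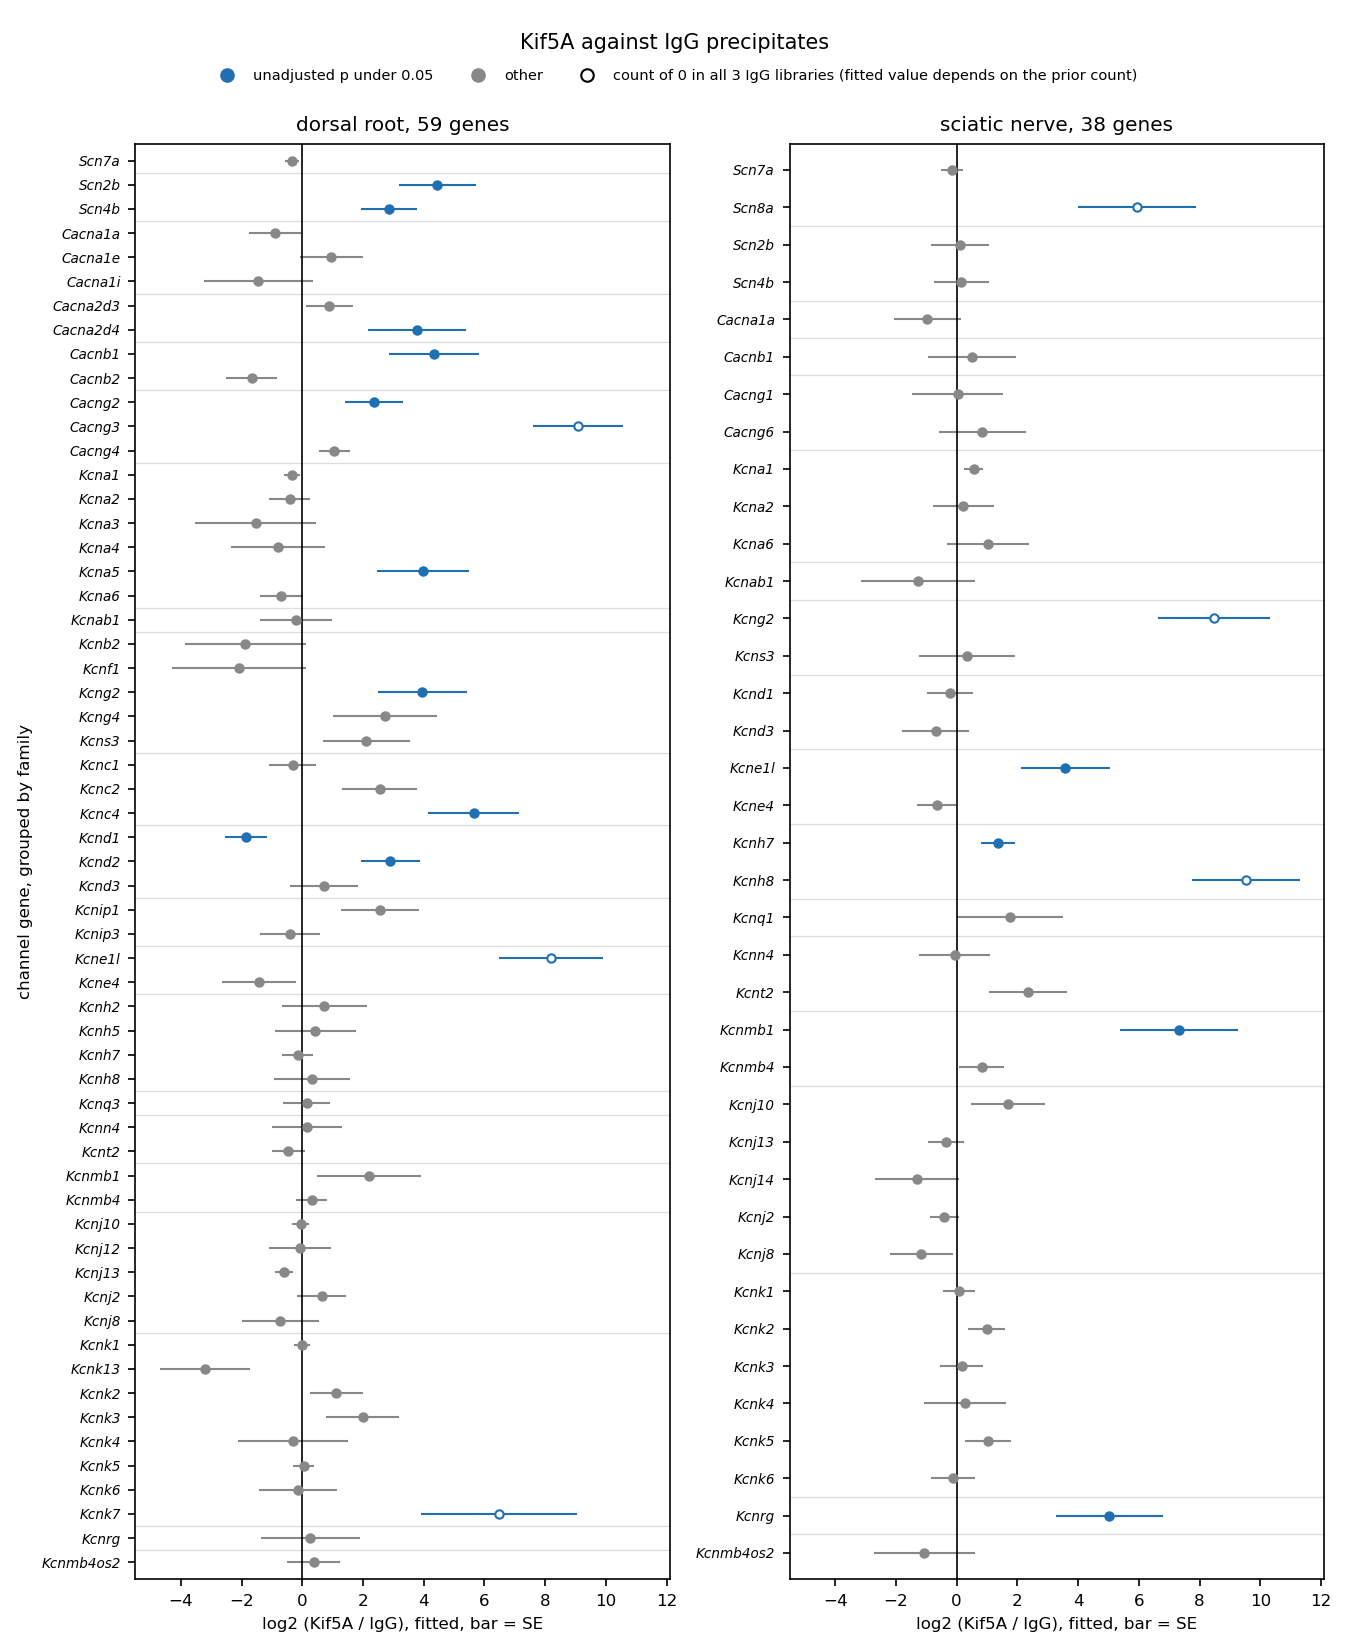
Fitted log2 ratios of Kif5A to IgG with their SE for 59 channel genes in dorsal root and 38 in sciatic nerve, in family order. Filled points have counts with IgG, open points have none in all 3 IgG libraries, and blue marks an unadjusted p under 0.05, seen in 13 genes on the left and 7 on the right.

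By family, the dorsal root log2 ratios had medians of 2.36 over the 3 Cacng genes, 2.85 over the 3 Scn beta subunits, 2.55 over the 3 Kcnc genes and 2.41 over the 6 Kcnb, Kcnf, Kcng and Kcns genes. They were -0.55 over the 6 Kcna genes, -0.07 over the 5 Kcnj genes and 0.02 over the 8 Kcnk genes. Over all 63 channel genes tested the median was 0.28, with 36 above 0 (57.1%), against a median of -0.05 and 47.4% above 0 over all 14150 genes. That median was 1.2 without the third IgG library (0.06 over all genes), 0.89 without the second, 1.5 with limma-voom (0.2 over all genes) and 0.72 with the replicate block. The bounds of Cacng3, Kcne1l and Kcnk7 lie above the median, which is therefore also 0.28 with these genes at their bounds. Scaling by library size alone moved the medians of the channel genes to 0.37 and of all genes to 0.05, a like shift in both.

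In sciatic nerve the channel genes that stood out were again mostly of low abundance: Kcnh8, Kcng2, Kcnmb1, Scn8a, Kcnrg, Kcne1l and Kcnh7. Of these, Kcng2 and Kcne1l also had an unadjusted p under 0.05 in dorsal root. The edgeR test called 0 of the 41 channel genes tested (1 gene of all 13272 was called, 0.00753%). At an unadjusted p under 0.05, 7 were higher with Kif5A and 0 lower, where 6.83% of all genes were higher and 3.83% lower. With only the Kif5A and IgG libraries in the edgeR fit, 3 of 38 channel genes had an unadjusted p under 0.05, all 3 higher, as did 854 of all 12594 genes in either direction. All Kif5A libraries lay above all IgG libraries in 7 channel genes and below in 0, where 9.49% and 6.74% of all genes did. DESeq2 called 3 of the 41 (Kcnh8, Kcng2 and Kcnmb1, with 4.51% of all genes called) and limma-voom called 3, also Kcnh8, Kcng2 and Kcnmb1 (1.19% of all genes). Kcnj12 and Kcnu1 did not pass the filter. The median log2 ratio was 0.17, with 26 of 41 above 0 (63.4%), against -0.06 and 46.7% over all genes. It was -0.04 without the second Kif5A library, 0.73 without the second IgG library and 0.71 with limma-voom (0.18 over all genes). The bounds of the 3 genes without IgG counts lie above the median, which is therefore also 0.17 with these genes at their bounds.

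Kcnh8 encodes an ether-a-go-go-like channel of neurons (chr17:52602709-52979194). It had 4.37, 2.62 and 4.87 CPM in sciatic nerve input and 0.487, 6.59 and 7.78 CPM with Kif5A. The IgG libraries held none. The first Kif5A library, with 8 counts, was far below the other two. In all there were 285 Kif5A counts against the floor of 3 over the IgG group, at least 120-fold higher (adjusted p = 0.103 with edgeR, 9.19e-06 with DESeq2 and 0.0363 with limma-voom). Kcng2, the silent subunit, had 28, 14 and 83 counts with Kif5A, none with IgG and 6, 4 and 37 in input, at least 52.8-fold higher (adjusted p = 0.111 with edgeR and 0.00188 with DESeq2). Kcnmb1, the smooth muscle accessory subunit of calcium-activated potassium channels, had 35, 50 and 104 counts with Kif5A, 0, 0 and 1 with IgG and 31, 0 and 3 in input. Its ratio was 239 with a counting interval of 42.4 to 9500 (adjusted p = 0.146 with edgeR and 0.00623 with DESeq2). Smooth muscle and pericyte markers summed to 928 to 1261 CPM with Kif5A and 1082 to 1096 CPM with IgG, with 1 of 8 at 0 in all IgG libraries and none with Kif5A, and their part in the Kcnmb1 value was not tested.

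Scn8a had 18, 3 and 0 counts with Kif5A and none with IgG, at least 8.87-fold higher, a total of 21 counts of which 1 library held 18. Scn2b, Scn4b and Scn7a showed no such gap in sciatic nerve. Scn2b had 4, 22 and 5 counts with Kif5A and 5, 15 and 11 with IgG, and Scn4b had 15.3, 14.2 and 1.99 CPM and 17.7, 5.34 and 5.24 CPM. Scn7a had 565, 829 and 999 CPM with Kif5A and 634, 880 and 1151 with IgG. Their log2 ratios lay between -0.15 and 0.16.

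Kcnrg, a suppressor of Shaker-type channels, had 34, 35 and 0 counts with Kif5A and 0, 1 and 1 with IgG, a ratio of 43.7 with a counting interval of 11.6 to 368. Kcne1l had 9.92, 2.56 and 9.35 CPM with Kif5A, above all 3 IgG libraries at 0.143, 0 and 1.66 CPM (log2 ratio 3.58, SE 1.47, adjusted p = 0.397). Kcnh7, the second ether-a-go-go gene of this table, had 12.4, 16.6 and 21.2 CPM with Kif5A and 4.58, 4.68 and 10.3 with IgG, groups that did not overlap (log2 ratio 1.36, SE 0.56, adjusted p = 0.404). Its input of 19.0 ± 2.43 CPM was close to the Kif5A level. Kcnt2 and Kcnk2 were also separated, with 6.07 ± 3.33 against 1.19 ± 0.965 CPM and 12.4 ± 3.95 against 6.27 ± 0.777 CPM. Kcnu1, listed by a transcript of 697 bases, had 12, 5 and 5 counts with Kif5A and none in IgG or input. It was at least 9.29-fold higher than with IgG and did not pass the filter.

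Among the abundant channels of sciatic nerve, Kcna1 had 503, 512 and 692.5 CPM with Kif5A and 269, 326 and 567 CPM with IgG. Only the third IgG library reached into the Kif5A range (log2 ratio 0.56, SE 0.32, adjusted p = 0.625). Kcnk1 was highest in the third library of both groups, with 111, 99.8 and 298 CPM with Kif5A and 82.2, 104 and 295 with IgG. Kcnmb4 had 28.5, 41.9 and 138 CPM with Kif5A, 34.2 or less in the first and second IgG libraries and 67.2 in the third. Markers of myelinating Schwann cells stood at 3676, 7902 and 22920 CPM with Kif5A and 5021, 7668 and 22440 with IgG, none of 7 at 0 in all libraries of a group, and their part in the values of Kcna1, Kcnk1 and Kcnmb4 was not tested.

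The channel genes with the lowest p among those with less RNA in Kif5A than in IgG precipitates of sciatic nerve were Kcnj8, Kcne4, Kcnj14 and Cacna1a. Kcnj8, the pore of vascular ATP-sensitive channels, had 14.5, 19.9 and 2.22 CPM with Kif5A and 32.1, 1.42 and 48.5 with IgG (log2 ratio -1.16). Kcne4 had 31.9, 20.7 and 8.71 CPM against 47.9, 37.0 and 11.6 (log2 ratio -0.65). Kcnj14 had 18.9, 3.62 and 0.234 CPM against 36.1, 17.9 and 2.20 (log2 ratio -1.301), and Cacna1a had 1.33 ± 0.458 against 2.603 ± 2.12 CPM (log2 ratio -0.97). In all 4 genes the groups overlapped. Adipocyte markers summed to 10950, 9544 and 1759 CPM with Kif5A, 24930, 19680 and 11380 with IgG and 3433, 3597 and 982.5 in input, none of 5 at 0 in all libraries of a group, and their part in these values was not tested.

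A count of 0 was far more frequent with IgG than with Kif5A. In dorsal root, 34.8%, 29.0% and 26.1% of the 69 channel genes had no count in the 3 IgG libraries, against 14.5%, 12.8% and 10.3% of all genes. With Kif5A the shares for channel genes were 5.8%, 7.25% and 4.35%, and in input 2.9%, 1.45% and 2.9%. In sciatic nerve 23.3%, 25.6% and 18.6% of the 43 channel genes were at 0 with IgG, where all genes gave 10.5%, 9.88% and 8.19%, and 2.33%, 2.33% and 6.98% with Kif5A. At least 1 IgG library was at 0 for 35 of 69 channel genes in dorsal root and 17 of 43 in sciatic nerve, where 23.1% and 18.1% of all genes were.

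The shares also differed by abundance. Among genes with a dorsal root input of 1 to 10 CPM, 23 of 39 channel genes (59.0%) had a 0 with IgG, against 37.8% of all genes at that level. At 10 CPM or more it was 0 of 16 channel genes and 1.09% of all genes. In sciatic nerve the shares at 1 to 10 CPM were 13 of 24 (54.2%) and 31.6%. Under 1 CPM the shares were highest, with 12 of 14 channel genes (85.7%) and 61.3% of all genes in dorsal root. In sciatic nerve they were 4 of 5 (80.0%) and 51.3% at that level. Most unadjusted calls higher with Kif5A lay at 1 to 10 CPM, as did most tested channel genes. They were 9 of 39 tested channel genes in dorsal root (10.7% of all genes) and 4 of 24 in sciatic nerve (10.3%). Under 1 CPM they were 1 of 8 (15.2% of all genes) and 2 of 3 (13.4%), and at 10 CPM or more 2 of 16 (3.58%) and 1 of 14 (3.07%).

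**Figure D4:**
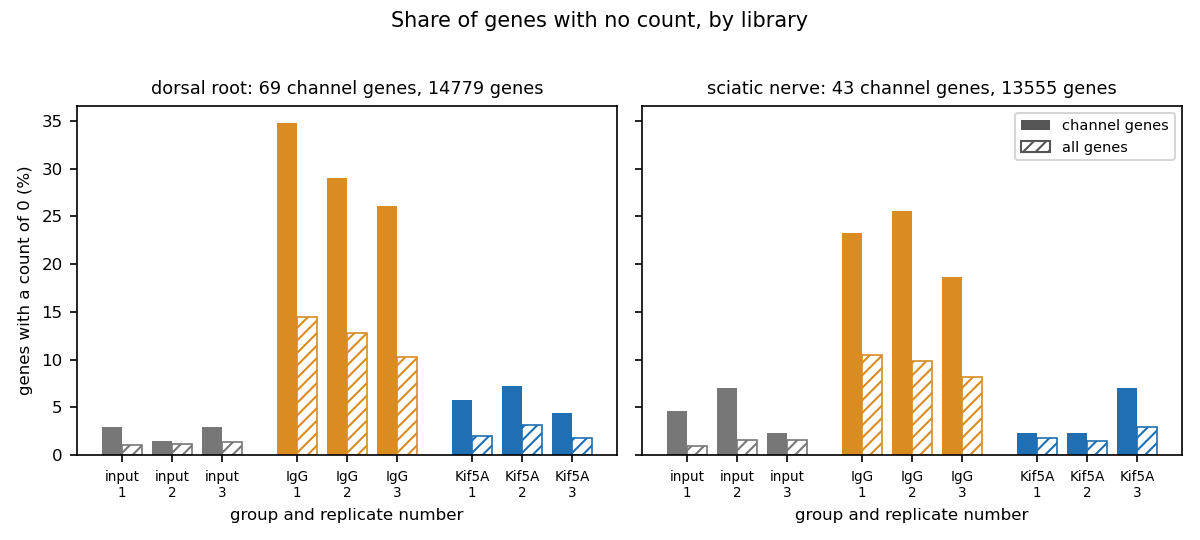
Share of genes with a count of 0, in percent, in each of the 18 libraries, with solid bars for channel genes and hatched bars for all genes. In the 6 IgG libraries 18.6% to 34.8% of channel genes were at 0, and in the 6 Kif5A libraries 2.33% to 7.25%.

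The IgG libraries also varied most. The median coefficient of variation of channel genes was 0.984 with IgG, 0.550 with Kif5A and 0.313 in input of dorsal root, and 0.874, 0.568 and 0.427 in sciatic nerve, where all genes gave 0.659, 0.359 and 0.246, and 0.605, 0.391 and 0.382. In 8 dorsal root channel genes and 3 sciatic nerve ones, 1 IgG library held no count while another held 100 or more. Kcnk6 was one, with 0, 450 and 215 counts in dorsal root.

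Against input, no channel gene was called in the Kif5A precipitates of either nerve. In dorsal root edgeR called 0 of 63 at an adjusted p under 0.05 (1 gene of all, 0.00707%), as did DESeq2 (2.19% of all genes) and limma-voom (0.0%). By unadjusted p under 0.05, 2 were higher (4.43% of all genes) and 1 lower (4.97%). Kcna2 was one of the higher ones (log2 ratio 1.76, SE 0.70, adjusted p = 0.485), with 2 Kif5A libraries above the input range and 1 within it. The lower one was Kcnk1, with 394, 263 and 310 CPM against 522, 515 and 511 (log2 ratio -0.68, SE 0.25, adjusted p = 0.465). Scaling by library size alone moved the median log2 ratio of all genes in this comparison from 0.05 to 0.42 and that of channel genes from 0.38 to 0.74, and no channel gene was called under it. The median of channel genes was 0.06 without the first Kif5A library, 0.08 with limma-voom and 0.15 with the replicate block. With only the Kif5A and input libraries in the edgeR fit, 15 of 64 channel genes had an unadjusted p under 0.05, 12 of them higher. Of all 13904 genes, 3264 did. After adjustment 0 of the 64 were called, and 292 of all genes were, so the small counts above depend on the IgG libraries in the fit.

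In sciatic nerve, 0 of 41 channel genes were called against input by edgeR (0.0% of all genes), DESeq2 (0.437%) or limma-voom (0.0%). At an unadjusted p under 0.05, 0 were higher (2.58% of all genes) and 1 was lower (2.86%). That gene was Cacng6, a gamma subunit of skeletal muscle calcium channels, with 24, 14 and 26 counts in input and 0, 2 and 0 with Kif5A (log2 ratio -5.07, SE 1.40, adjusted p = 0.763). It had 0, 1 and 0 counts with IgG, so both precipitates lacked it. Cacng1, the gamma subunit of the skeletal muscle channel complex, had 5.85 ± 2.32 CPM in input, 1.39 ± 1.21 with Kif5A and 1.37 ± 1.48 with IgG. Skeletal muscle markers summed to 787 to 926 CPM in input, 354 to 539 with Kif5A and 338 to 404 with IgG, none of 6 at 0 in all libraries of a group, and their part in the Cacng1 and Cacng6 values was not tested.

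In the fit over all 9 libraries of a tissue, more channel genes differed from input with IgG than with Kif5A at an unadjusted p under 0.05. With only the IgG and input libraries of dorsal root in the edgeR fit, 13 of 57 channel genes did, and 2466 of all 13371 genes. In dorsal root 5 channel genes were higher and 13 lower with IgG than in input at an unadjusted p under 0.05, where 10.6% and 11.7% of all genes were. edgeR called 0 of 63 after adjustment (0.0% of all genes), DESeq2 12 (15.5%) and limma-voom 6 (4.16%). Cacng3 and Kcne1l had the lowest adjusted p, 0.0536 for each, both with no IgG count. Of the 12 genes with an unadjusted p under 0.05 for more RNA with Kif5A than with IgG, Cacng3, Kcne1l, Kcnc4, Scn2b, Scn4b, Kcnd2, Cacnb1, Kcna5, Cacng2 and Kcnk7 were also among the 13 lower with IgG than in input. Both comparisons share the IgG libraries, so they are not separate evidence. The 5 genes with more RNA in IgG were Kcnk13, Kcnj13, Kcna2, Cacnb2 and Kcnj10.

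In sciatic nerve 2 channel genes were higher with IgG than in input (8.42% of all genes) and 8 lower (9.0%) at an unadjusted p under 0.05. After adjustment edgeR called 0 of 41 (5 of all genes, 0.0377%), DESeq2 6 (9.93%) and limma-voom 2 (1.43%). Kcnh8 had the lowest adjusted p, 0.065, followed by Cacng6 (0.0812) and Kcng2 (0.0925). The higher ones were Kcnj14 (log2 ratio 4.11, adjusted p = 0.199) and Kcne4 (1.495, adjusted p = 0.265).

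Whether the ratio of Kif5A to IgG differed between the nerves was tested on the transcripts listed for both, over the 12 precipitates. No channel gene of the 37 tested was called by edgeR (2 genes of all, 0.0159%) or limma-voom (1 gene, 0.00797%), and DESeq2 called Kcnh8 (1.49% of all genes). At an unadjusted p under 0.05, Kcnh8 had the larger ratio in sciatic nerve (3.67% of all genes did) and Scn2b the larger ratio in dorsal root (2.71% did). For Kcnh8 the difference of log2 ratios was 9.17 (SE 2.74, adjusted p = 0.498 with edgeR and 0.026 with DESeq2). The dorsal root IgG libraries held 0, 128 and 221 counts and the sciatic nerve ones none, while Kif5A gave 9.55 ± 2.86 and 4.95 ± 3.91 CPM. For Scn2b the difference was -4.37 (SE 1.63, adjusted p = 0.64), again with IgG counts of 1, 0 and 0 in dorsal root and 5, 15 and 11 in sciatic nerve and with Kif5A levels of 0.651 ± 0.326 and 0.514 ± 0.427 CPM. Scn4b (-2.70) and Kcne1l (-4.76) had differences toward dorsal root, and Kcnt2 (2.79), Kcng2 (4.48) and Kcnmb1 (5.06) toward sciatic nerve, all with an adjusted p of 0.829 or more. Over 19 alternatives the value for Kcne1l ran from -5.31 to -0.47, the latter with limma-voom, and that for Scn4b from -3.69 to -1.88. The value for Kcng2 turned to -0.75 without the third dorsal root IgG library, which held all 13 of its IgG counts. No IgG count of Kcng2 was then left in either nerve, so that value depends on the small count that the fit adds. The values for Kcnh8, Kcng2 and Kcne1l over the 12 precipitates depend on it as well. Kcnh8 and Kcng2 had no IgG count in sciatic nerve, and Kcne1l had none in dorsal root.

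The clearest differences among channel genes were between the inputs of the nerves. Kcnj10 fell and Kcnk3 rose from dorsal root to sciatic nerve, 2 of 35 channel genes called by edgeR, where 503 of all 12215 genes were (4.12%). DESeq2 called 7 (8.69% of all genes) and limma-voom 2 (4.04%). At an unadjusted p under 0.05, 5 channel genes were higher in sciatic nerve (7.62% of all genes) and 5 lower (6.96%). In bulk lysate, fewer cells of a type and less RNA per cell cannot be told apart.

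Kcnj10 (chr1:172341210-172374085) had 130, 92.6 and 95.7 CPM in dorsal root input and 8.33, 5.57 and 10.8 CPM in sciatic nerve input. The ranges were far apart, with a log2 difference of -3.57 (SE 0.33, adjusted p = 0.000411), and the call held in all 13 alternatives, with a highest adjusted p of 0.00616. The 4 tested markers of astrocytes and oligodendrocytes, Aqp4, Gfap, Mobp and Slc1a2, fell as well, with log2 differences of -6.82, -6.02, -7.26 and -5.37. Their list summed to 1274 to 1752 CPM in dorsal root input (6 markers measured) and 13.0 to 16.2 CPM in sciatic nerve input (4 measured), with none of the measured markers at 0 in all libraries of a group. Their part in the Kcnj10 difference was not tested.

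Kcnk3 (chr5:30588170-30625271), an acid-sensitive leak channel, had 2.08, 2.54 and 2.29 CPM in dorsal root input and 12.7, 9.26 and 7.87 CPM in sciatic nerve input, again without overlap. The log2 difference was 2.23 (SE 0.40, adjusted p = 0.0157). The call was lost without any 1 of the dorsal root inputs, in order of replicate, or without the first sciatic nerve input, with adjusted p of 0.108, 0.0945, 0.0763 and 0.0981. Markers of skeletal muscle summed to 82.2 to 134.5 CPM in dorsal root input (4 measured) and 787 to 926 CPM in sciatic nerve input (6 measured). Those of adipocytes summed to 39.0 to 48.8 CPM (3 measured) and 982.5 to 3597 CPM (5 measured), with no measured marker of either list at 0 in all libraries of a group. Smooth muscle and pericyte markers, 8 of 8 with a higher fitted level in sciatic nerve, summed to 671 to 868 CPM and 1089 to 1721 CPM, and Acta2 (log2 difference 2.14) and Cspg4 (2.36) were called. Fibroblast markers, 4 of 5 higher, summed to 3592 to 4382 CPM and 4816 to 12040 CPM, and Col1a1 was called. No marker of these lists was at 0 in all input libraries of a nerve. Their part in the Kcnk3 difference was not tested.

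Kcna1 and Kcna2, the juxtaparanodal pair, had lower input levels in sciatic nerve, without reaching the threshold in the fit without a replicate block. Kcna1 had 1565, 1118 and 1356 CPM in dorsal root and 716, 655 and 581.5 in sciatic nerve, without overlap (log2 difference -0.93, SE 0.23, adjusted p = 0.0585). With the replicate number as a block Kcna1 was called (log2 difference -0.92, adjusted p = 0.0476, edgeR), and the calls rose to 3 channel genes and 682 of all 12215 genes. Kcna2 had 26.9, 29.9 and 39.2 CPM and 12.4, 12.5 and 16.9 CPM (log2 difference -1.08, SE 0.29, adjusted p = 0.0889). Kcnk1 was at -0.64 (adjusted p = 0.149), and the leak channel Kcnk2 at 1.73 (adjusted p = 0.105). Without the third sciatic nerve input, 11 channel genes were called, among them Kcna1 (adjusted p = 0.0066) and Kcna2 (0.0049), but 2538 of all 12330 genes were then called as well.

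**Figure D5:**
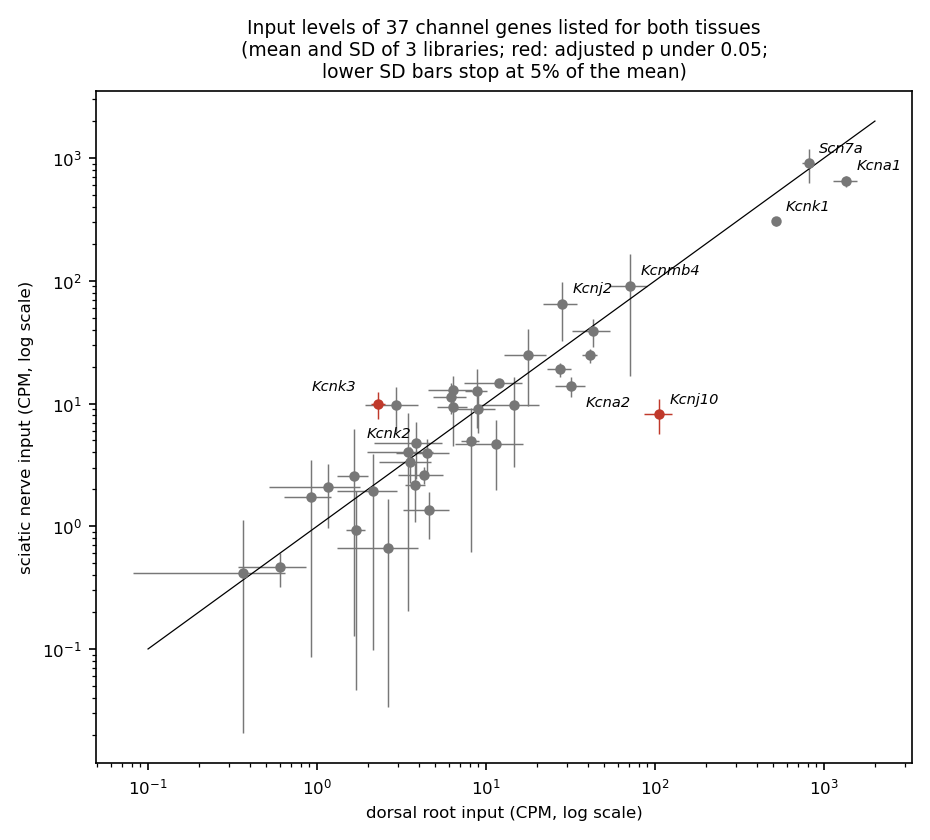
Mean input CPM of the 37 channel genes of both tables in dorsal root (horizontal, log scale) and sciatic nerve (vertical, log scale), with SD bars over 3 libraries. Kcnj10 and Kcnk3, in red, are the 2 genes with an adjusted p under 0.05.

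Genes that work with these channels gave no call for Kif5A against IgG in either nerve. Of the axonal node and initial segment proteins, 5 of 13 tested in dorsal root had a ratio above 1 (median log2 ratio -0.11), and 9 of 10 in sciatic nerve (0.61). For the sodium and potassium pump the numbers were 7 of 10 (0.18) and 5 of 9 (0.01). Other cation channels of sensory neurons gave 9 of 16 (0.54) and 8 of 13 (0.17), and channel partners and regulators 9 of 14 (0.59) and 6 of 12 (-0.04), beside medians over all genes of -0.05 and -0.06. The 4 lists held, by unadjusted p under 0.05, 7 higher and 1 lower gene in dorsal root and 5 higher and 1 lower in sciatic nerve. Over all genes 7.51% were higher and 4.25% lower in dorsal root, and 6.83% and 3.83% in sciatic nerve.

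Between inputs, several of these genes fell from dorsal root to sciatic nerve, where edgeR called 503 of all 12215 genes (4.12%). The lists as a whole did not fall. Their median log2 differences, in the order above, were -0.16, -0.23, 0.03 and 0.12, beside 0.06 over all genes. Cntnap2, the adhesion protein that holds Kcna1 and Kcna2 at the juxtaparanode, fell by 4.16 on the log2 scale (SE 0.70, adjusted p = 0.0109), and Lgi3, a ligand of the same complex, by 1.87 (adjusted p = 0.0179), 2 of 10 genes of their list. The pump subunits Atp1b1 and Atp1b2 fell by 3.88 and 2.06, 2 of 9. Unc80, a subunit of the sodium leak channel complex, fell by 3.95 (1 of 11), and Stac2, a calcium channel regulator, by 3.97 (1 of 12). No gene of the 4 lists was called higher, and 7 were higher at an unadjusted p under 0.05, where 7.62% of all genes were. Lower at that level were 4, 3, 3 and 3 genes of the lists, in the same order, where 6.96% of all genes were. Of the neuronal markers, Nefl, Nefm, Snap25 and Tubb3 fell too, 4 of 9 tested, and their part was not tested.

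The authors' deposited table, which tests single transcripts, gave more calls. For Kif5A against IgG in dorsal root the authors' deposited table had a false discovery rate under 0.05 for 11 of 77 channel transcripts, all higher, where 6.59% of all transcripts passed. They belonged to Cacnb1, Cacng3, Kcnc4, Kcnd2, Kcnd3os, Kcne1l, Kcnip4, Kcnj9, Scn1a, Scn2b and Scn4b. In sciatic nerve the authors' deposited table had 4 of 48 (Kcng2, Kcnh8, Kcnmb1 and Kcnu1), where 6.69% of all passed. Against input the authors' deposited table had 0 of 77 in dorsal root (2.9% of all) and, in sciatic nerve, Kcnu1 higher and Cacng6 lower of 48 (1.19% of all). In the authors' deposited table Cacng3 had a log2 fold change of 9.10 and Kcnh8 one of 9.31 against IgG, each in a tissue whose IgG libraries held no count of that gene.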

How the data were processed

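RNA was measured with SMART-Seq v4 libraries from 18 samples in 6 groups of 3. Per the file headers, the authors deposited raw counts per transcript for each tissue, with log2 fold changes and p-values (false discovery rates) of their own comparisons, which were used only as quoted. CASAVA 1.8.2, edgeR and the build mm10/GRCm38 are named, per the submitters' processing notes. The aligner, the counter, its strand setting and the annotation release were not given in the sources used here, so reads from stretches where a gene and its antisense RNA overlap (Kcnd3 and Kcnd3os, Kcnmb4 and Kcnmb4os2) cannot be assigned to 1 of them. Rows without a gene name (283 and 266) were left out, 0.138% to 0.237% of counts. Counts were summed per gene and tested with edgeR 4.0.16 (R 4.3.3; TMM, filterByExpr, robust quasi-likelihood test, two-sided, Benjamini-Hochberg over all genes, threshold 0.05) over the 9 libraries of a tissue. Comparisons between tissues used the 16878 transcripts of both tables. Between the inputs of the nerves, the 3 same-number pairs had r = 0.199, 0.105 and 0.355 across genes. Pairs of unlike number also deviated together. Dorsal root input 1 with sciatic nerve input 2 had r = 0.249, and dorsal root input 2 with sciatic nerve input 1 had 0.145. Replicates 1 and 2 of the inputs thus did not match by number. Over all groups, 9 of 27 same-number pairs across tissues had r above 0.1, against 4 of 54 pairs of unlike number. The fit with the replicate number as a block is given beside that comparison as an alternative only, and the labels state no shared animals. DESeq2 1.42.0 and limma 3.58.1 (voom) were alternatives, with other scalings, no filter, a replicate block and each library left out. Bounds of "at least" set a group without counts to 3 counts over its 3 libraries and scale by library totals. They take the summed Kif5A counts as given, so they are no lower limits for a single library or a new pool. The 95% intervals rest on counts summed over 3 libraries. They cover counting error only and leave out the spread between libraries. PCR copies could not be collapsed, which makes these intervals too narrow. Lengths and coordinates came from GENCODE M21 (22707 of 22876 transcripts found). The fit was tested on simulated data with the same spread per gene in all groups, unlike the real libraries. In sciatic nerve 60 of 100 genes changed 16-fold and 22 of 100 changed 4-fold were recovered among 13010. The channel genes, gene lists and the rule for named genes (a preset list of well-known channels, in each comparison those called or else the 4 lowest p in each direction, the 8 highest inputs, and genes without IgG counts but at least 30 with Kif5A) were chosen with earlier results of these data known. Other genes were named after their values were seen. A few genes and 1 sequence are not reported here, though these genes stay in the counts and medians given.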

Additional observations from a re-analysis of the deposited data

How the results depend on the processing

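Of 988 values for 70 gene results under the alternatives, 922 kept their direction and side of the threshold, 24 reversed, 4 lost a call and 38 gained one. Channel genes called for Kif5A against IgG in dorsal root went from 0 to 7 with DESeq2 and 1 with limma-voom, and from 0 to 4 when a library was left out (4 without the third IgG library, where 621 of all 14446 genes were called, and 1 without the second, where 138 of 14515 were). In sciatic nerve they went from 0 to 3 with DESeq2 and 3 with limma-voom. For IgG against input in dorsal root they went from 0 to 12 with DESeq2, 6 with limma-voom, 2 by library size alone (277 of all 14150 genes) and 0 to 10 with a library left out (10 without the third IgG library, with 2691 of 14446 genes), and in sciatic nerve to 6 with DESeq2 and 2 with limma-voom. The difference between nerves went from 0 to 1 with DESeq2 and 0 to 1 with a library left out (Kcnj10, adjusted p = 0.0357, edgeR, without the third sciatic nerve IgG library). Between inputs the 2 calls became 7 with DESeq2, 3 with the replicate block and 1 to 11 with a library left out. The summed level of channel genes in dorsal root input was 3270 CPM, and 2833 by library size alone. Kif5A against input stayed at 0 called channel genes in every alternative run.

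Equal replicate numbers were not stated to share animals. Within a tissue, 6 of 18 same-number pairs correlated above 0.1 (-0.019 to 0.294, median 0.058). Of the pairs of unlike number, 1 of 36 did (median -0.036). Across tissues, 9 of 27 same-number pairs and 4 of 54 others did. Libraries of equal number thus deviated together more often, though not every library correlated best with one of its own number. The replicate block added Kcna1 between inputs (adjusted p = 0.0476, edgeR) and changed no other channel gene call there.

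Reversed log2 ratios of Kif5A to IgG were, in dorsal root, Cacna1a 0.14 with shared transcripts and Kcnj10 0.045 by library size alone and 0.0019 with only the groups compared. In sciatic nerve they were Scn2b -0.025 with limma-voom and Scn4b -0.0083 with limma-voom and -0.0077 with the block. With a library left out, the dorsal root ranges were -1.33 to 0.52 for Cacna1a, -0.82 to 0.84 for Kcna2, -0.33 to 0.11 for Kcnj10 and -0.37 to 1.36 for Kcnq3. The sciatic nerve ranges were -0.35 to 0.073 for Scn7a, -0.83 to 0.49 for Scn2b, -0.21 to 0.99 for Scn4b and -0.36 to 1.08 for Kcna2. The Kcng2 difference between nerves ran from -0.75 to 5.06, the former with no IgG count left in either nerve. The causes were not tested.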

Other observations

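Kcnd2 and Kcnd3, separate genes on chromosomes 6 and 3, had equal counts in 3 of 9 dorsal root libraries: 1 in the first IgG library, 319 in the first input and 112 in the third input. They differed in the other 6 libraries, as in the second input with 193 and 272.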
